A study of Mus musculus with 12 samples.

Results

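The genes described here are the 10 genes of the ATF4 amino acid response Chac1, Trib3, Asns, Aldh1l2, Bcat1, Psat1, Mthfd2, Ddit3, Atf3 and Atf4, taken as every probe whose gene symbol in the array's annotation is one of these names. They were read by 20 of the array's 45281 probes, and all 20 were among the 18389 probes tested, which stood for 10142 named genes. The data are 12 Illumina MouseWG-6 bead arrays, on which each probe reads 1 stretch of transcript by hybridization of labelled RNA. The RNA came from mouse embryonic fibroblasts (MEFs, connective tissue cells grown in culture from embryos) of a mixed C57BL6/129Sv background. The 4 genotypes were Sting -/- (SKO), Sting -/- Trex1 -/- (STKO), Trex1 -/- (TKO) and Sting +/+ Trex1 +/+ (WT). STING is the adaptor that passes a cytosolic DNA alarm on to interferon genes, and TREX1 is an exonuclease that degrades cytosolic DNA. Each genotype was given DMSO, the solvent control, or DMBA (7,12-dimethylbenz[a]anthracene, a polycyclic hydrocarbon carcinogen) at 20 µg/ml for 24 h or for 48 h, and each combination was read on a single array. No source used here gives the time for which the DMSO cultures were kept. The effect of DMBA and that of time therefore cannot be told apart in a difference from DMSO, and the 24 h and 48 h differences share the same DMSO arrays. Since no label assigns the arrays to separate embryos or dishes, a p-value here measures the spread between single arrays alone. In a treatment comparison that spread includes differences between genotypes in the response, and the rest may be technical. The genotype-by-treatment arrays were the only replication: a treatment effect is a mean of 4 within-genotype differences.

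ATF4 is a basic leucine zipper transcription factor whose protein accumulates when kinases such as GCN2 (amino acid shortage), PERK (misfolded protein in the endoplasmic reticulum) or PKR phosphorylate the translation factor eIF2 alpha. It binds C/EBP-ATF composite sites, also called amino acid response elements, and drives genes for amino acid synthesis and uptake, tRNA charging and one-carbon metabolism. Much of its control lies in translation of its messenger RNA, which an array does not read.

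The promoters are described because Atf3 moved opposite to the enzyme genes, and their part in that difference was not tested. The core of the composite site was searched as TGATGNAA on both strands in the 250 bases before each annotated start, with promoters from RefSeq (GRCm38.p6). The motifs were chosen after the sequences could be seen. Of the 10 genes, 9 have a promoter in that table (Aldh1l2 is the other), in 11 windows. TGATGNAA occurred before Asns, Chac1 and Atf3 and in none of the other windows, against 3.45% of all 32851 promoters. TGACGTNA, a CRE-like core bound by ATF and CREB factors, was found before Atf3 and in none of the other windows, against 2.52% of all promoters. The sequences of those 3 genes are printed 5′ to 3′ on the strand of the gene, with the motif letters in capitals, so that the shared and the separate letters can be seen.
Asns: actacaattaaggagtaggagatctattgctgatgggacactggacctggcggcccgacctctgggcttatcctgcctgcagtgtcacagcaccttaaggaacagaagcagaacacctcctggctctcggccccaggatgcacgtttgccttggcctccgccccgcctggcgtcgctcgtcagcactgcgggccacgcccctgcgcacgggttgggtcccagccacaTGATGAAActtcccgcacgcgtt
Chac1: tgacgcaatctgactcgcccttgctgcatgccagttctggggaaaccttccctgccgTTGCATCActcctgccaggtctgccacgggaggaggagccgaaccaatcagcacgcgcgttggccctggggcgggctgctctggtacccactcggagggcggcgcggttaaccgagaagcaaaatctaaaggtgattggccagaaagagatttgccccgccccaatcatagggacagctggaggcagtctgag
Atf3: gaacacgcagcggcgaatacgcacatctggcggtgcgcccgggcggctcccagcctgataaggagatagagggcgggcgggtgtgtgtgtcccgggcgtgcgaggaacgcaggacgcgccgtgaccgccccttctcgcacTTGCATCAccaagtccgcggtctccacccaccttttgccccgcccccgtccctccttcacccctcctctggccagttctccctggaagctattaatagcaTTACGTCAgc
The Asns window is chr6:7693210-7693459 (minus strand), and its motif reads TGATGAAA on the gene's strand 23 to 16 bases before the start. The Chac1 window is chr2:119350992-119351241 (plus strand), and TTGCATCA, the motif on the opposite strand, lies 193 to 186 bases before the start. The Atf3 window is chr1:191183334-191183583 (minus strand), with the same TTGCATCA 110 to 103 bases and TTACGTCA, the CRE-like core, 10 to 3 bases before the start. Such a match describes the letters and is not a measured binding site.

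Between 15662 and 16824 probes were detected per array at a detection p under 0.01. The levels of the knocked-out genes followed the labels: Sting1 read 5.06 to 6.01 on the 6 arrays of Sting -/- cells and 7.80 to 8.12 on the 6 of Sting +/+ cells (log2), and the brightest Trex1 probe read 6.22 to 7.19 on Trex1 -/- and 8.12 to 9.46 on Trex1 +/+ arrays. Sting1 was still detected on the SKO and STKO arrays at 48 h, and that Trex1 probe on all 12 arrays. Of the other Trex1 probes, 1 was detected on the 6 Trex1 +/+ arrays alone and 1 on 0 arrays. All 10 fibroblast markers were detected, while 2 of 6 endothelial, 5 of 7 epithelial, 3 of 6 muscle and 3 of 6 neural markers were, with Cdh5, Kdr, Pecam1, Tie1, Epcam, Krt5, Ckm, Myod1, Myog, Gfap and Sox2 on 0 arrays. All 11 macrophage markers on the array were detected, and their level differed with genotype. The summed macrophage marker level was 13.63 to 14.72 in SKO, 13.98 to 14.76 in STKO, 11.48 to 12.40 in TKO and 14.23 to 15.05 in WT arrays (log2). Its part in the results below was not tested.

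After 48 h of DMBA, 8 of the 10 genes had fallen, Atf3 had risen, and Ddit3, which encodes CHOP, had not passed the test. The fall was steepest, in the mean over the genotypes, for the folate enzyme gene Aldh1l2 (9.80-fold lower), followed by the pseudokinase gene Trib3 (7.91-fold), the glutathione-degrading enzyme gene Chac1 (6.61-fold) and the aminotransferase gene Bcat1 (6.25-fold), while Atf3 was 5.49-fold higher. At 24 h 5 genes had fallen (Chac1, Trib3, Asns, Bcat1 and Mthfd2) and Atf3 had risen. Calls rest on limma's linear model of genotype plus treatment, with a Benjamini-Hochberg adjusted p, over all 18389 tested probes, under 0.05, and each gene is given by its brightest probe unless another is named. At that threshold 21.9% of all tested genes were lower and 19.2% higher at 48 h, and 9.73% lower and 7.01% higher at 24 h. The median difference of the 10 genes was -0.76 at 24 h and -1.80 at 48 h on the log2 scale, beside medians over all tested genes of 0.0013 and -0.02. Between 48 h and 24 h of DMBA, a comparison without the DMSO arrays, 6 genes were lower at 48 h and 0 higher, beside 5.13% of all genes lower and 5.31% higher. Under median scaling the direction of all calls in that comparison shifted (556 of 1798 called probes lower, beside 958 of 1919), and the 6 calls were the same genes. The 24 h calls lean on single genotypes: 1 gene (Chac1) was called without the STKO arrays, 2 without WT and 2 without TKO, and 9 without SKO. The 48 h count was 8 or 9 whichever genotype was left out. The 6 calls between 48 h and 24 h became 0 without STKO (limma, with 7 genes at an unadjusted p under 0.05), 3 without TKO and 3 without WT. In RNA from whole cultures, fewer cells of a type and less RNA per cell cannot be told apart.

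Of the 5 enzymes of amino acid and one-carbon metabolism among the 10 genes, 3 were called lower at 24 h and 5 at 48 h. Asns encodes asparagine synthetase, which makes asparagine from aspartate and glutamine. Asns read 13.06, 12.90 and 12.02 in SKO, 12.93, 12.50 and 11.50 in STKO, 13.07, 12.02 and 10.96 in TKO, and 13.03, 12.00 and 11.04 in WT cells, each in the order DMSO, 24 h and 48 h of DMBA (log2 normalized signal, as for all levels that follow). On its brightest probe the 4 DMSO arrays lay close together (SD 0.06), and every DMBA array lay below all of them at both times. Its dimmer probes were above DMSO in SKO cells at 24 h, by 0.06 and 0.20. The brightest probe's difference from DMSO was -0.66 ± 0.17 at 24 h (limma SE, n = 4 genotypes, limma adjusted p = 0.0314) and -1.64 ± 0.17 at 48 h (limma adjusted p = 0.000167). Every SE given here comes from limma's residual spread over all 12 arrays. It is not the spread of the 4 genotype differences at that time. Psat1 encodes the phosphoserine aminotransferase of serine synthesis. Psat1 read 12.51, 12.59 and 11.52 in SKO, 12.38, 11.99 and 10.68 in STKO, 12.66, 11.77 and 10.91 in TKO, and 12.55, 11.90 and 11.06 in WT cells. At 24 h its groups overlapped, with SKO above every DMSO array but 1, and the difference of -0.46 ± 0.16 was not called (limma adjusted p = 0.0745), while at 48 h it had fallen below every DMSO array (-1.48 ± 0.16, limma adjusted p = 0.000167). Bcat1 encodes the cytosolic branched-chain aminotransferase. Bcat1 read 11.70, 11.31 and 10.06 in SKO, 11.69, 10.81 and 8.99 in STKO, 11.67, 10.17 and 8.52 in TKO, and 11.65, 10.10 and 8.55 in WT cells. Its DMSO arrays were the tightest of the 10 genes (SD 0.02), and the 3 treatments did not overlap. It fell by 1.08 ± 0.22 on the log2 scale at 24 h (limma adjusted p = 0.0137) and by 2.64 ± 0.22 at 48 h (limma adjusted p = 7.17e-05), and the further fall between 24 h and 48 h was also called (limma adjusted p = 0.00486).

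Mthfd2 and Aldh1l2 encode mitochondrial folate enzymes, a methylenetetrahydrofolate dehydrogenase that feeds one-carbon units into the pathway and a formyltetrahydrofolate dehydrogenase that removes them. Mthfd2 read 12.33, 11.73 and 11.07 in SKO, 12.15, 11.29 and 10.24 in STKO, 12.11, 11.21 and 9.99 in TKO, and 12.25, 11.01 and 9.70 in WT cells. Its brightest probe was lower in all 4 genotypes at both times, by 0.90 ± 0.17 at 24 h and 1.96 ± 0.17 at 48 h in the mean (limma adjusted p = 0.0103 and 8.37e-05). Its dimmer probe was 0.06 above DMSO in SKO cells at 24 h. Aldh1l2 read 11.23, 11.17 and 9.99 in SKO, 10.94, 10.37 and 8.10 in STKO, 11.21, 9.70 and 6.78 in TKO, and 11.54, 10.28 and 6.86 in WT cells. Most of this fall came late: it was 5.44-fold lower at 48 h than at 24 h (log2 difference -2.44 ± 0.45, limma adjusted p = 0.0117), more than any other of the 10 genes. At 24 h its SKO array overlapped the DMSO arrays, and the brightest probe was not called (-0.85 ± 0.45, limma adjusted p = 0.227). At 48 h the genotypes spread widely, with SKO 2.36-fold, STKO 7.15-fold, TKO 21.5-fold and WT 25.5-fold below their own DMSO array.

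Chac1 and Trib3 are ATF4 targets, Chac1 an enzyme that breaks down glutathione and Trib3 a pseudokinase that feeds back on ATF4. Chac1 read 11.92, 11.03 and 9.90 in SKO, 11.39, 9.85 and 8.78 in STKO, 11.93, 9.43 and 9.08 in TKO, and 11.54, 8.91 and 8.11 in WT cells. It was the member with the largest fall at 24 h (-1.89 ± 0.26, limma adjusted p = 0.00281), and it stayed called at 24 h whichever genotype was left out. The further step to 48 h (-0.84 ± 0.26) was not called (limma adjusted p = 0.0677). Trib3 read 11.60, 11.05 and 10.05 in SKO, 11.16, 9.73 and 8.25 in STKO, 11.30, 9.69 and 8.18 in TKO, and 12.13, 9.41 and 7.76 in WT cells. WT cells held the highest DMSO level of Trib3 and the lowest level at 48 h, and the 48 h level was 2.92-fold below DMSO in SKO, against 20.5-fold in WT cells. In the mean it fell by 1.58 ± 0.35 at 24 h and by 2.98 ± 0.35 at 48 h on the log2 scale (limma adjusted p = 0.0165 and 0.000253).

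Atf4 itself had a smaller mean difference than 8 of the other 9 genes at 48 h. Atf4 read 12.94, 13.10 and 12.90 in SKO, 12.80, 12.37 and 12.03 in STKO, 13.06, 12.18 and 12.17 in TKO, and 13.27, 11.87 and 11.91 in WT cells. In WT and TKO cells the 24 h and 48 h arrays read nearly the same, in STKO cells the 48 h array was lower, and in SKO cells the DMBA arrays lay among the DMSO arrays of the 4 genotypes or near them, so that the groups overlapped at both times. The mean difference was -0.64 ± 0.22 at 24 h (limma adjusted p = 0.0733) and -0.77 ± 0.22 at 48 h (limma adjusted p = 0.0184), and the 48 h call was lost without WT, without TKO and without STKO (limma adjusted p = 0.0742, 0.082 and 0.0781). Ddit3 (CHOP, a partner of C/EBP proteins linked to stress-induced death) did not follow the other targets. Ddit3 read 11.62, 11.10 and 11.22 in SKO, 11.40, 10.70 and 11.11 in STKO, 11.82, 12.24 and 12.84 in TKO, and 11.90, 10.96 and 11.23 in WT cells. TKO was the genotype with more Ddit3 than in DMSO at both times, and the other 3 had less. Its mean difference was -0.43 ± 0.24 at 24 h and -0.08 ± 0.24 at 48 h (limma adjusted p = 0.239 and 0.808), and without the TKO arrays it was called lower at both times (-0.45 at 48 h).

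Atf3 took the opposite course. It encodes a bZIP factor that ATF4 can induce and that DNA damage, cytokines and growth signals also induce. Atf3 read 6.60, 6.97 and 7.21 in SKO, 6.07, 8.17 and 8.34 in STKO, 6.53, 10.25 and 10.72 in TKO, and 6.34, 8.34 and 9.08 in WT cells. All 4 genotypes started between 6.07 and 6.60, and every DMBA array lay above every DMSO array. By 48 h SKO cells had 1.54-fold, STKO 4.82-fold, TKO 18.3-fold and WT 6.70-fold more Atf3 than their own DMSO array. The mean rise was 2.05 ± 0.46 at 24 h and 2.46 ± 0.46 at 48 h (limma adjusted p = 0.0186 and 0.00271), and the further step between 24 h and 48 h was 0.41 ± 0.46 (limma adjusted p = 0.624). The 24 h rise was called without SKO and was not called when WT, TKO or STKO was left out. The 48 h rise was called in each of these fits. Atf3 also shares with Asns and Chac1 the TGATGNAA letters printed above, and it alone of the 3 holds TGACGTNA. The part of these letters in its course was not tested.

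**Figure D1:**
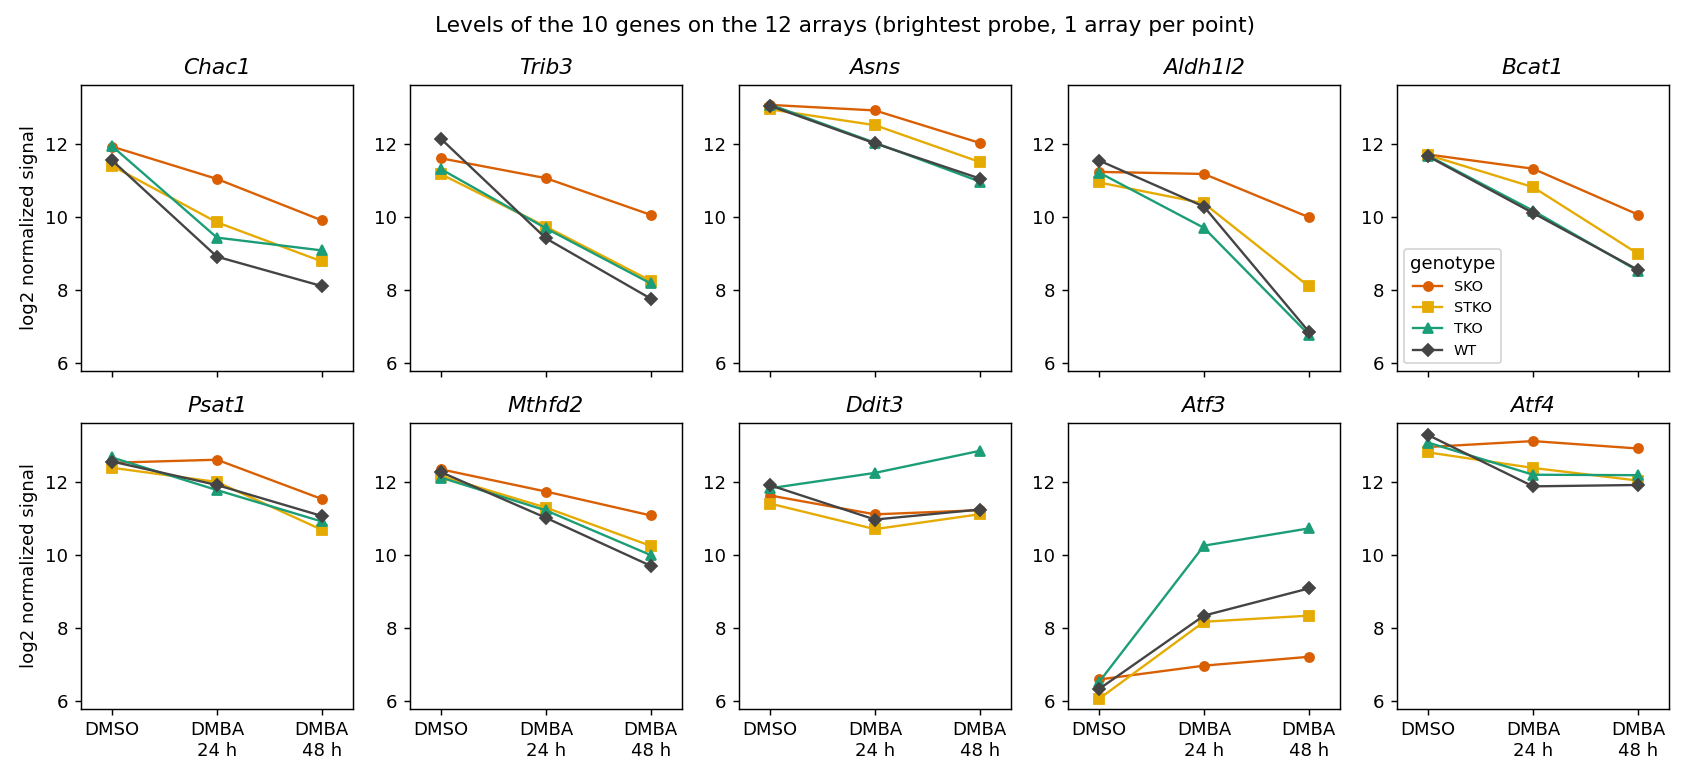
Levels of the 10 genes on the 12 arrays, 1 panel per gene. The vertical axis is the log2 normalized signal of the gene's brightest probe, the horizontal axis the treatment, and each line joins the 3 arrays of 1 genotype. In every genotype at 48 h, 7 genes lie below all their DMSO arrays (the share of all tested genes that do so was not counted). Atf3 climbs from levels between 6.07 and 6.60, and the SKO line is the flattest for Atf3 and Atf4.

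SKO cells had the smallest fall at 48 h for 8 of the 9 genes other than Atf3, Ddit3 being the exception. Over the 9 genes other than Atf3, the median log2 difference from DMSO at 24 h was -0.39 in SKO, -0.70 in STKO, -1.04 in TKO and -1.26 in WT cells. At 48 h it was -1.24 in SKO, -1.91 in STKO, -2.12 in TKO and -2.56 in WT cells. At 48 h 9 of these 9 genes were below their DMSO array in SKO, STKO and WT, and 8 of 9 in TKO, where Ddit3 was the exception. Of all 10142 tested genes, 5207 were below it in SKO, 5153 in STKO, 5356 in TKO and 5255 in WT cells. As the genes were chosen with earlier results of these data known, these counts are a description. The whole response to DMBA was also smaller in Sting -/- cells: the SD of the log2 differences over all 10142 genes at 48 h was 0.55 in SKO, 0.69 in STKO, 0.89 in TKO and 0.89 in WT cells. At 24 h that SD was 0.43 in SKO, 0.48 in STKO, 0.73 in TKO and 0.69 in WT cells. The part of this overall difference in the members' values was not tested.

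Other DMBA-responsive genes are given beside these for scale. As genes chosen after their values were seen, Cyp1b1, a DMBA-oxidizing enzyme under control of the aryl hydrocarbon receptor, was higher at 48 h by 1.38 in SKO, 1.68 in STKO, 1.32 in TKO and 1.59 in WT cells (log2 difference from DMSO). Nqo1, a quinone reductase gene, was higher by 3.54 in SKO, 3.93 in STKO, 4.41 in TKO and 4.54 in WT cells at 48 h. Cdkn1a, which encodes the p53 target p21, was higher by 1.09 in SKO, 1.29 in STKO, 1.77 in TKO and 2.03 in WT cells at 48 h. These are single arrays per genotype, with no test within a genotype.

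**Figure D2:**
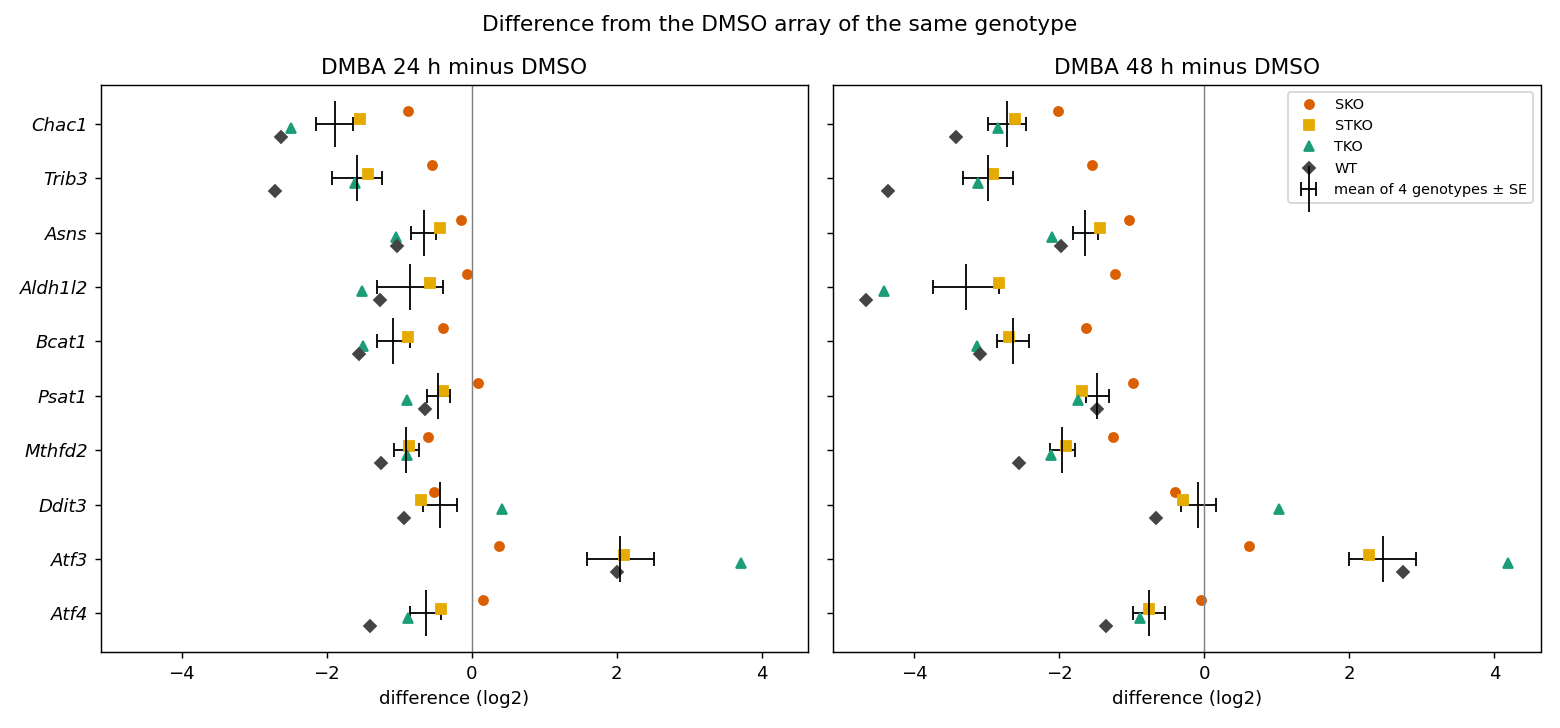
Difference of each gene from the DMSO array of the same genotype (log2, horizontal axis), at 24 h on the left and 48 h on the right. Points are single genotypes, and the cross is the mean of 4 genotypes ± SE; SKO is the point nearest 0 for most genes, and Atf3 is the gene with all 4 points above 0 at both times.

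Whether the response depended on STING was tested as an interaction, the DMBA response of Sting -/- cells (SKO and STKO) minus that of Sting +/+ cells (TKO and WT), in which a positive value means a smaller fall without STING. Over both times, 3 of the 10 genes were called: Chac1 (1.09 ± 0.24, limma adjusted p = 0.0433), Asns (0.77 ± 0.16, limma adjusted p = 0.0368) and Aldh1l2 (1.79 ± 0.39, limma adjusted p = 0.0415). Of all tested genes 6.42% were called in that test. The other 5 genes that fell had values between 0.44 and 1.35 and were not called, with Atf4 at 0.86 ± 0.24 (limma adjusted p = 0.073). Atf3 had -1.82 ± 0.60, a smaller rise without STING, and was not called (limma adjusted p = 0.102), with values of -0.98 without SKO, -1.03 without TKO, -2.61 without WT and -2.67 without STKO. The median of the 10 genes was 0.82, beside -0.0010 over all tested genes. At 24 h alone Chac1 was called (1.35 ± 0.28, limma adjusted p = 0.0395, beside 6.06% of all genes), and at 48 h alone Asns (0.81 ± 0.18, limma adjusted p = 0.0474) and Aldh1l2 (2.51 ± 0.45, limma adjusted p = 0.0282, beside 5.25% of all genes).

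These 3 calls depend on each genotype. Without WT, without TKO or without SKO 0 of the 10 genes were called (limma, with 6, 7 and 4 genes at an unadjusted p under 0.05), and without STKO 2 were, Aldh1l2 and Bcat1. Chac1 stayed positive in all 4 of those fits (0.78 without SKO to 1.40 without STKO), as did Asns (0.61 without SKO to 0.94 without STKO) and Aldh1l2 (1.26 without SKO to 2.32 without STKO). Under median scaling 416 of 1361 called probes were negative, beside 536 of 1122, with 3 of the 10 genes called in both. Markers of the fibroblasts themselves moved in the same test. The median of 10 fibroblast markers was 0.65, with Pdgfra (1.48 ± 0.25, limma adjusted p = 0.0228) and Col1a2 (1.06 ± 0.18, limma adjusted p = 0.0236) called, and that of 11 macrophage markers was 0.30, with C1qc (0.85 ± 0.18, limma adjusted p = 0.039) and Adgre1 (0.82 ± 0.17, limma adjusted p = 0.0382) called. Of all tested genes 6.42% were called in that test, and the part of these markers in the members' values was not tested.

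**Figure D3:**
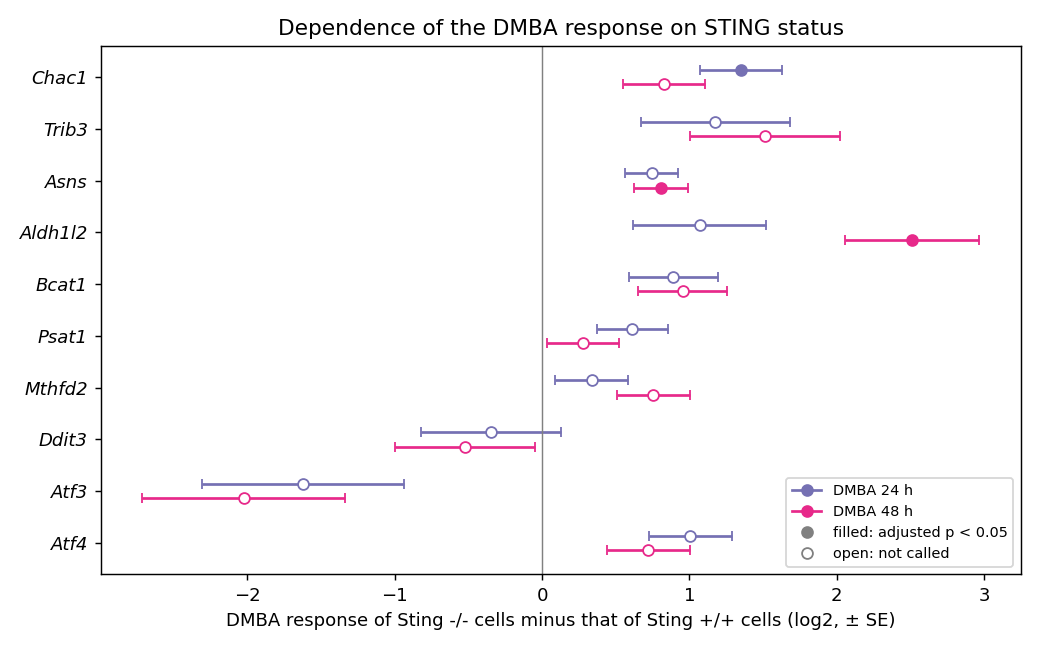
DMBA response of Sting -/- cells minus that of Sting +/+ cells for each gene (log2, ± SE) at 24 h and at 48 h. Filled points had an adjusted p under 0.05: Chac1 at 24 h and Asns and Aldh1l2 at 48 h; Atf3 and Ddit3 are the genes with negative values at both times.

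Trex1 status did not call any of the 10 genes in the same kind of test, beside 0% of all tested genes. With limma, 1 of the 10, Atf3, had an unadjusted p under 0.05 (a response larger by 1.63 ± 0.69 in Trex1 -/- cells, limma adjusted p = 1). Averaged over treatments, loss of STING (the mean of SKO minus WT and STKO minus TKO) called 0 of the 10 genes, beside 10.4% of all tested genes, although 7 had an unadjusted p under 0.05. Among these Bcat1 (0.65 ± 0.18, limma adjusted p = 0.0538) and Atf3 (-1.32 ± 0.38, limma adjusted p = 0.0568) came closest. Loss of Trex1 called 0 of the 10, beside 2.7% of all genes, with Psat1 and Atf3 at an unadjusted p under 0.05. Set against WT alone, again averaged over treatments, Chac1 was higher in SKO cells (1.43 ± 0.30, limma adjusted p = 0.0192). In that comparison 6.96% of all tested genes were called, and 1 gene of 10 is near that background share. Chac1 read 11.92 in SKO and 11.54 in WT cells under DMSO, 11.03 and 8.91 at 24 h, and 9.90 and 8.11 at 48 h. The mean of 1.43 therefore includes the smaller fall of Chac1 in SKO cells. In STKO (beside 5.11%) and TKO cells (beside 5.82%) 0 of the 10 were called, and limma gave 0 and 2 of the 10 an unadjusted p under 0.05.

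In the mean over the genotypes, the remaining probes of the 10 genes were lower in the same comparisons, apart from Ddit3. In SKO cells at 24 h, however, the dimmer probes of Asns, Bcat1 and Mthfd2 were above DMSO. Of the genes with more than 1 probe, Trib3, Asns and Aldh1l2 have 3 and Bcat1, Mthfd2, Ddit3 and Atf4 have 2. At 48 h every probe of each of these genes except Ddit3 was lower. The dimmest Aldh1l2 and the dimmer Bcat1 probe passed the detection filter only or mainly through DMSO arrays, so their lower reading is no support. Mean log2 differences at 48 h were -1.68 to -1.54 for Asns, -1.96 to -1.67 for Mthfd2 and -0.83 to -0.77 for Atf4. The dimmer Trib3 probes were detected on 3 of 4 and 1 of 4 arrays at 48 h, so their sizes of change are not given either. The pair of Ddit3 probes read -0.08 and 0.02. At 24 h Aldh1l2, not called by its brightest probe, was called lower by the second (limma adjusted p = 0.0424), and Atf4 by its dimmer one (-0.69 ± 0.17, limma adjusted p = 0.0248). The dimmest Aldh1l2 probe was detected on 2 of 12 arrays, both DMSO, so it passed the detection filter through that group alone and its calls are not used. The dimmer Bcat1 probe was detected on 5 arrays and 0 of 4 at 48 h, and its size of change is not given.

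Across the 12 arrays the 7 genes whose 48 h arrays all lay below every DMSO array varied together. The share of all tested genes with such a separation was not counted. As the 7 were picked on these same arrays for a fall with treatment, a high correlation among them is no separate result. As a description over arrays that share genotypes and treatments, Pearson's r lay between 0.83 (Chac1 with Aldh1l2) and 1.00 (Asns with Bcat1) among Chac1, Trib3, Asns, Aldh1l2, Bcat1, Psat1 and Mthfd2. Atf4 correlated with these 7 at 0.75 to 0.91, Atf3 at -0.83 to -0.73, and Ddit3 at -0.25 to 0.11. Among all tested genes the 5 with the pattern most like Asns were Bcat1, Fdps, Pold2, Sqle and Rnaseh2b (r of 0.99 to 1.00), of which Fdps and Sqle are enzymes of sterol synthesis and Pold2 is a DNA polymerase subunit. The 5 most like Chac1 were Adamtsl3, Pawr, Msi2, Piezo2 and Poc1b (r of 0.97 to 0.98). For Atf3 they were Nkx2-9, Epha2, 2700097O09Rik, Leng1 and Ahrr (r of 0.96 to 0.99), Epha2 being a receptor tyrosine kinase and Ahrr the repressor of the aryl hydrocarbon receptor.

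Other genes of the pathway fell in part. The counts that follow stand beside 9.73% of all tested genes lower and 7.01% higher at 24 h. At 48 h these shares were 21.9% and 19.2%. Of 8 tested amino acid transporters 4 were lower and 0 higher at 24 h (median -0.59), namely the neutral amino acid carriers Slc43a1 (-0.85 ± 0.12), Slc38a1 (-0.40 ± 0.11) and Slc1a4 (-0.65 ± 0.19) and the glycine transporter Slc6a9 (-0.85 ± 0.13). At 48 h 3 were lower, among them Slc43a1, which was detected on 2 of 4 arrays at 48 h (limma adjusted p = 0.000114), and the cationic amino acid transporter Slc7a3 (-1.80 ± 0.31, limma adjusted p = 0.00167), and 1 was higher (median -0.30). That 1 was Slc7a11, the cystine importer, a target of both ATF4 and the oxidative stress factor NRF2. Slc7a11 read 7.09, 6.87 and 8.83 in SKO, 6.39, 6.54 and 8.93 in STKO, 6.74, 5.20 and 9.06 in TKO, and 6.66, 5.54 and 9.12 in WT cells. It was detected on 2 of the 4 arrays at 24 h and on all DMSO and 48 h arrays. In TKO and WT cells it was thus lower than in DMSO at 24 h and above it at 48 h, and it was higher at 48 h than at 24 h (limma adjusted p = 0.00105), by a size that its undetected arrays at 24 h leave as a lower bound, while Asns and Bcat1 went on falling.

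Of 10 enzymes of serine, glycine, proline, cysteine and one-carbon synthesis, 4 were lower and 3 higher at 48 h (median -0.30). The lower ones were the mitochondrial serine hydroxymethyltransferase Shmt2 (-1.53 ± 0.18, limma adjusted p = 0.000241), the proline enzyme Aldh18a1 (-1.93 ± 0.23), the serine enzyme Phgdh (-1.45 ± 0.20) and the alanine aminotransferase Gpt2 (-1.27 ± 0.19). The higher ones, named after their values were seen, were the cytosolic folate enzymes Aldh1l1 and Mthfd1 and the transsulfuration enzyme Cbs, which was detected on 3 of 4 arrays at 48 h and 0 of 4 DMSO arrays, passed the detection filter through DMBA arrays alone, and gets no fold. Mthfd1 was higher by 0.49 ± 0.16 (limma adjusted p = 0.0346). Aldh1l1 was detected on 4 of 4 arrays at 48 h and 2 of 4 DMSO arrays. At 24 h 2 of the 10 were lower and 1 higher (median 0.05). The aminoacyl-tRNA synthetases, which charge tRNAs, fell broadly: 11 of 17 were lower and 0 higher at 48 h (median -0.55), and 5 of 17 at 24 h (median -0.22), with Aars at -1.23 ± 0.16, Iars at -0.89 ± 0.11, Gars at -0.82 ± 0.10 and Lars at -0.79 ± 0.12 at 48 h.

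Among 15 other ATF4 targets and regulators of the response, 7 were lower and 5 higher at 48 h (median -0.37), and 5 were lower and 3 higher at 24 h (median -0.26). The bZIP factor Cebpg fell (-0.83 ± 0.11), as did the stress factor Nupr1 (-1.52 ± 0.17, limma adjusted p = 0.000183) and Herpud1, of the degradation machinery of the endoplasmic reticulum (-1.33 ± 0.20). Fgf21, a secreted hormone, was detected on 0 of 4 arrays at 48 h and 4 of 4 DMSO arrays, and at 48 h was at least 3.02-fold lower (limma adjusted p = 0.000319, for a probe that passed the detection filter mainly through its DMSO arrays). Ddit4, an inhibitor of mTORC1, rose (0.51 ± 0.12 at 24 h and 0.62 ± 0.12 at 48 h). In the STING interaction 2 of the 15 were called, the lipoprotein receptor Vldlr (0.88 ± 0.15, limma adjusted p = 0.0243) and the secreted Stc2 (0.57 ± 0.13, limma adjusted p = 0.0472). Of all tested genes 6.42% were called in that interaction. Stc2 was dim, with means of 6.40 in DMSO, 6.01 at 24 h and 6.04 at 48 h, and was detected on 3 of 4 arrays at 24 h. Of the 5 tested eIF2 alpha kinases and translation factors 0 were called at 24 h (limma, with 1 at an unadjusted p under 0.05, a gene detected on DMSO arrays alone, whose p is therefore no test), and at 48 h Impact, an inhibitor of GCN2, was higher (0.36 ± 0.10, limma adjusted p = 0.0137).

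Of 19 AP-1 and ATF/CREB factors, the family of Atf3, 7 were higher and 2 lower at 48 h (median -0.01), and 3 higher and 2 lower at 24 h (median 0.06). Of all tested genes, 19.2% were higher and 21.9% lower at 48 h, and 7.01% higher and 9.73% lower at 24 h. Fosb and Mafk of this list were detected on 0 of 4 DMSO arrays and passed the detection filter through DMBA arrays alone. A higher call on either is no test, and the counts of higher genes above were not corrected for this. Crem (0.99 ± 0.20, limma adjusted p = 0.00358) and Fosl2 (0.65 ± 0.13, limma adjusted p = 0.00353) rose at 48 h, Junb (0.91 ± 0.22, limma adjusted p = 0.0223) and Fos (0.43 ± 0.11, limma adjusted p = 0.032) at 24 h, and Creb1 (-0.78 ± 0.14) and Xbp1 (-1.35 ± 0.12) fell at 48 h. In the STING interaction Jun was called with a negative value (-1.30 ± 0.31, limma adjusted p = 0.0492), and Jdp2 and Nfe2l1 with positive ones, beside 6.42% of all tested genes called. Of 14 genes of the endoplasmic reticulum chaperones and unfolded protein response, 8 were lower and 1 higher at 48 h (median -0.46), and 5 were lower and 0 higher at 24 h (median -0.35), among them the chaperone Calr (-1.14 ± 0.12 at 48 h) and the disulfide isomerase Pdia6 (-0.85 ± 0.15 at 48 h). Of 10 regulators of mTORC1 and MYC, which also bear on ATF4 translation, 1 was lower at 24 h and 2 at 48 h. These counts are near the shares of all tested genes, 9.73% and 21.9%. The 2 at 48 h were Rptor (-0.57 ± 0.14, limma adjusted p = 0.00933) and Rheb (-0.32 ± 0.10, limma adjusted p = 0.0325). In the same comparison 8 of 11 macrophage markers were lower and 2 higher at 48 h (median -0.98), and 5 of 10 fibroblast markers lower and 1 higher (median -0.53), and the part of these shifts in the fall of the 10 genes was not tested.

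**Figure D4:**
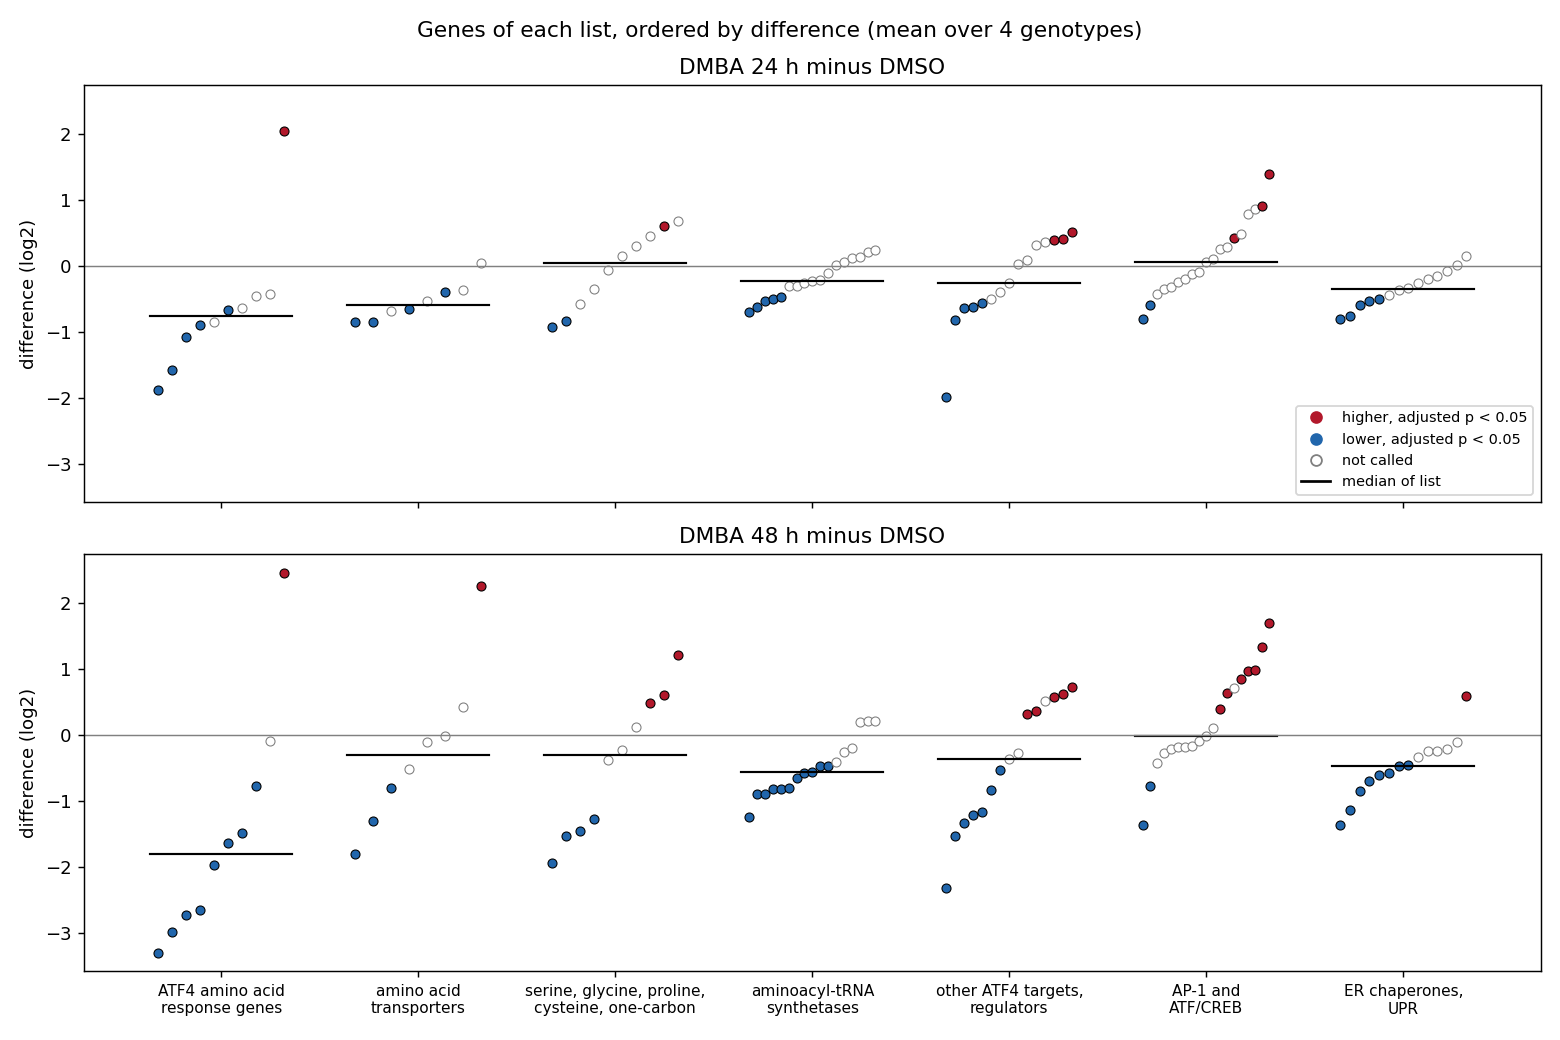
Genes of each list at 24 h (upper) and 48 h (lower), 1 point per tested gene, ordered by mean log2 difference from DMSO (vertical axis). Blue points were lower and red points higher at an adjusted p under 0.05, open points were not called, and the bar is the list's median, which at 48 h was -1.80 for the 10 genes and between -0.55 and -0.01 for the other lists shown.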

How the data were processed

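The labels give 1 array for each of 4 genotypes and 3 treatments. The deposited signals are linear intensities with no normalization across arrays, per the file headers. The deposited detection column is a score that follows the signal (Spearman correlation 0.98 to 0.99), and 1 minus that score served as the detection p. The authors' value table is in log2 units and equals quantile-normalized signals without background correction, centred per probe (largest difference 0.00125, 12 of 12 columns matched). No source used here names the scanner software.

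Signals were background corrected with the detection p, offset by 16, quantile normalized and log2 transformed (neqc, limma 3.58.1, R 4.3.3), so a fold of a dim probe is understated. The tested probes (18389) had a detection p under 0.01 on 2 or more arrays. Gene symbols came from the platform annotation, and 20 of 20 member probes matched RefSeq by Entrez ID. A gene is its brightest tested probe over 12 arrays.

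Treatments were compared with genotype as a term (6 residual degrees of freedom) and STING or Trex1 dependence as an interaction (4), by lmFit and eBayes, 2-sided, with Benjamini-Hochberg adjustment over all tested probes. Genotype is the only block; the labels give no replicate number beyond 1. The number of arrays limits the precision. The fit was tested on simulated data. The 10 genes, the lists and the tests were chosen with earlier results of these data known. Named genes are the 10 members, up to 4 called genes of each list and comparison by smallest p, Sting1 and Trex1, and the 5 genes most correlated with Asns, Chac1 and Atf3. Outside this rule, Cyp1b1, Nqo1, Cdkn1a, Cbs and Mthfd1 were named after their values were seen. The list genes Cd68, Dars, Eif2s1, Fosl1, Gdf15, Got1, Mars, Mthfd1l, Pycr1 and Slc7a5 were not analysed here. Alternatives were other background correction, scaling, probe filters, probe choice, variance model and arrays.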

Additional observations from a re-analysis of the deposited data

Results flagged for a closer look

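Ddit3 in TKO cells at 48 h of DMBA stood apart from the other 3 genotypes. It read 12.84 on that array, and the nearest of the others, WT, read 11.23, a gap of 0.926 of the group's range. Among the 30 sets of 4 arrays examined in this way (10 genes under 3 treatments) it was the one such value. Chance gives such a value in about 1 of 20 sets, so 1 among 30 is no more than chance would give. The second Ddit3 probe was also highest there (12.23).

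The response of 3 genes to DMBA differed with STING status by limma's interaction test. The DMBA response of Sting -/- cells minus that of Sting +/+ cells was 1.35 for Chac1 at 24 h (limma adjusted p = 0.0395), 0.81 for Asns at 48 h (limma adjusted p = 0.0474) and 2.51 for Aldh1l2 at 48 h (limma adjusted p = 0.0282). The 3 values stayed positive when any 1 genotype was left out, but the calls did not hold. Chac1 at 24 h was called in 0 of those 4 fits (limma adjusted p = 0.0551 to 0.255), Asns at 48 h in 0 of 4 (0.0704 to 0.245), and Aldh1l2 at 48 h in 1 of 4, without STKO (0.0382 to 0.165).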

How the results depend on the processing

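At 48 h of DMBA against DMSO, 8 or 9 of the 10 genes were called under every alternative run. At 24 h the 6 calls became 3 with no filter on dim probes and 1 to 9 when 1 genotype was left out, and at 48 h against 24 h the 6 calls became 0 to 6 when 1 genotype was left out. The 3 calls of the STING interaction became 6 without background correction, 6 on the authors' value table, 5 with probes detected on all 12 arrays, 5 with a trended robust variance, 0 with no filter on dim probes (limma, 8 at an unadjusted p under 0.05), and 0 to 2 when 1 genotype was left out. STING loss, with 0 calls, had 2 without background correction, 2 on the authors' value table, 4 with the trended robust variance, 2 with the mean of a gene's probes and 0 to 2 when 1 genotype was left out. Both Trex1 tests kept 0 calls under all of these. Ddit3 at 48 h changed sign without WT (0.11) and without SKO (0.02), and was called without TKO (-0.45). The causes were not tested, except that fewer arrays give fewer degrees of freedom and that keeping dim probes raises the number of tests. Over all probes, 2876 were called at 24 h and 1729 when only the 8 arrays compared were fitted, and the STING interaction called 1122 probes, 1885 without background correction, 1884 on the value table and 211 with no filter. Genotype is a term in every fit, so treatments were compared within genotype. No further pairing was possible because each genotype and treatment has 1 array and the labels give no other replicate numbers. Signal over background limits the dimmer probes of Trib3, Aldh1l2 and Bcat1.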
